A study of Mus musculus with 8 samples.

Results

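The skeletal muscle genes examined here are 42 genes for the contractile apparatus, its calcium handling and its energy supply. They were taken as every probe set whose only gene symbol in the platform annotation is one of the 42. The rule found 58 probe sets of 40 genes among the 22690 probe sets of the array. No such probe set was found for Mybpc1 and Mybpc2, which encode slow and fast myosin-binding protein C, and 2 probe sets that name Myh7 together with Myh6 were left out. RNA came from whole skin of newborn mice of the FVB strain and was measured on Affymetrix expression arrays, 2 for each of 4 genotypes, with RNA of 3 animals pooled on each array per the series text. The groups were pRb-/-;p107-/- (double-null below), pRb-/-;p107+/+ (pRb-null), pRb+/+;p107-/- (p107-null) and pRb+/+, whose labels state no p107 genotype. The pRb+/+ group is taken below as p107-positive, which is an assumption. pRb, encoded by Rb1, and p107, encoded by Rbl1, are related proteins that bind E2F transcription factors and hold back cell cycle entry. The series is titled for the role of p107 in pRb-deficient epidermis. The sources used here do not give the promoter or cell type on which the deletions depend, nor whether muscle fibres of the skin carry them.

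Mouse skin holds skeletal muscle of its own, the panniculus carnosus, a thin sheet beneath the dermis and its fat that moves the skin. A muscle fibre contracts when calcium released through the ryanodine receptor binds the troponin complex (troponins C, I and T), which shifts tropomyosin on the actin filament and lets myosin heads pull. Most of these proteins exist as isoforms from separate genes for fast fibres, for slow fibres and heart, and for embryonic muscle. Around birth, muscle replaces embryonic and perinatal isoforms with adult ones, and most fibres of mouse trunk muscle become fast and glycolytic. The 58 probe sets fall into 18 of fast-fibre isoforms (13 genes), 10 of slow-fibre and cardiac isoforms (8 genes), 7 of embryonic and perinatal isoforms (5 genes), 18 of sarcomere genes shared by fibre types (9 genes), 3 of muscle metabolic enzymes and 2 of the myogenic factors Myod1 and Myog. Some members are not confined to skeletal muscle: Myl2, Myl3, Myl4, Tnnt2, Tnnc1, Actc1, Casq2 and Myh7 are also heart genes, and Des, Tpm1 and Tpm2 are also used by smooth muscle. In whole skin, fewer muscle fibres and less RNA per fibre cannot be told apart.

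The deposited values were z-scores, with a mean of 0 and an SD of 1 for each probe set across the 8 arrays. A z-score therefore tells on which arrays a probe set was high or low, and neither a level, nor a fold change, nor whether muscle RNA was abundant can be read from it. Differences are in SD units of the probe set, with the standard error of a linear model over all 8 arrays (4 residual degrees of freedom), and p-values were given the Benjamini-Hochberg adjustment across 22626 tested probe sets, with a threshold of 0.05. They rest on the spread between the 2 arrays of a genotype, which may differ from the spread between animals. Duplicate arrays of the member probe sets lay closest in p107-null skin (median gap 0.33) and farthest in pRb-null skin (median gap 0.72). Over all tested probe sets the same genotypes were closest and farthest, with median gaps of 0.55 and 0.97. Rb1 had z-scores of -1.56 and -1.28 in double-null skin, -0.22 and 0.36 in pRb-null skin, 0.023 and 0.4 in p107-null skin and 1.21 and 1.07 in pRb+/+ skin, and its difference between double-null and pRb+/+ skin passed the threshold (-2.56 ± 0.27, limma linear model, adjusted p = 0.0391), while that between pRb-null and pRb+/+ skin did not (adjusted p = 0.266). Among the Rbl1 probe sets the first had -0.31 and 0.31 in double-null skin, 1.3 and 1.14 in pRb-null skin, -1.51 and -1.22 in p107-null skin and 0.078 and 0.21 in pRb+/+ skin. In both genes each null genotype lay below its matched genotype without overlap (double-null below p107-null and pRb-null below pRb+/+ for Rb1, double-null below pRb-null and p107-null below pRb+/+ for Rbl1), but double-null and pRb+/+ skin overlapped in this Rbl1 probe set. The second Rbl1 probe set had -0.13 and -0.2 in double-null skin, 1.4 and -0.023 in pRb-null skin, -1.53 and -1.12 in p107-null skin and 0.58 and 1.03 in pRb+/+ skin, without that overlap. The sources used here do not say where the probes lie relative to the deleted parts.

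The regulatory sequence of these genes shares features that the choice of members did not use. The windows below run from 250 bases before to 50 bases after the annotated start (RefSeq, GRCm38.p6), in lower case with each E-box (CANNTG, the site of MyoD and myogenin in muscle genes, the same on both strands) in capitals. They are shown for 3 genes that fell together in double-null against pRb-null skin (Eno3, Pgam2 and Myl1), for Tnni1, which moved the other way, and for Myh3, the embryonic myosin gene.
Eno3, chr11:70656926-70657225, plus strand: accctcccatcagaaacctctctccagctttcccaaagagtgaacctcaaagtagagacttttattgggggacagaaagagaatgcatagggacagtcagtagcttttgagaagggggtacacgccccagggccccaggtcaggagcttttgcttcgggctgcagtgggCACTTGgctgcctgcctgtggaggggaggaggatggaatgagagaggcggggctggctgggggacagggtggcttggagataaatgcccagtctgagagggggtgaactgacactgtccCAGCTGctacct
Pgam2, chr11:5803747-5804046, minus strand: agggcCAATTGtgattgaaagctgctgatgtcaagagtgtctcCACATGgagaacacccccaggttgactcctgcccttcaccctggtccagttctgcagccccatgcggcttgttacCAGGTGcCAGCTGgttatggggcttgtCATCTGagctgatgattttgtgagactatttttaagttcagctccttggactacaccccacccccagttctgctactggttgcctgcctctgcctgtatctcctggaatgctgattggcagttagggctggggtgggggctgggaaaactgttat
Myl1, chr1:66945007-66945306, minus strand: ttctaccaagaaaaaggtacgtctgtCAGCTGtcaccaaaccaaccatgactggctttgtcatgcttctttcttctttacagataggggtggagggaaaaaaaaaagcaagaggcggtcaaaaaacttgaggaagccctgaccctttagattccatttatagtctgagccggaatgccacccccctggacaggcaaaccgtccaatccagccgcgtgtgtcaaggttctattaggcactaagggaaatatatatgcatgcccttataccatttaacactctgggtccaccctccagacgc
Tnni1, chr1:135799171-135799470, plus strand: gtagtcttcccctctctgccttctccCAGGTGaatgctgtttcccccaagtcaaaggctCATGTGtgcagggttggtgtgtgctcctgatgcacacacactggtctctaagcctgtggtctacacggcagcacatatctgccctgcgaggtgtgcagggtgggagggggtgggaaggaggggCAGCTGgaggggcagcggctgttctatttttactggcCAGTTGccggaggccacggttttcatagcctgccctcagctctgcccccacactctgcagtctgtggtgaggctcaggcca
Myh3, chr11:67078050-67078349, plus strand: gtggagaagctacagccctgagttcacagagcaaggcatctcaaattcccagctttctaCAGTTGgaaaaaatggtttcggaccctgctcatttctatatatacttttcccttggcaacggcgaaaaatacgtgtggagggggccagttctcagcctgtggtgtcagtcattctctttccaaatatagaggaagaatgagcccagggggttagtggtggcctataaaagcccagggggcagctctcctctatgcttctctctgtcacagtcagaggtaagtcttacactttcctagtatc
An E-box was present in 37 of the 44 windows of 36 member genes that RefSeq's table holds (84.1%), against 72.3% of all 32851 windows. The palindromic form CAGCTG, which is 1 kind of E-box, was in 20 member windows (45.5%) against 16.3% of all, and the Eno3, Pgam2, Myl1 and Tnni1 windows printed here each hold 1. A CArG box, the site of serum response factor, was in 6 member windows (13.6% against 1.63%), a MEF2 site in 7 (15.9% against 3.19%) and CATTCCT, searched on both strands, in 5 (11.4% against 5.36%). Windows of 1 gene can overlap, and a match is a description of the letters and not a measured site. Several members also sit side by side in the genome: in the gene table Myh3, Myh2, Myh1, Myh4 and Myh8 follow one another on chromosome 11, Tnni2 and Tnnt3 lie 1 gene apart on chromosome 7, and Tnni1 and Tnnt2 lie 1 gene apart on chromosome 1.

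Across the 4 genotypes, muscle probe sets were most often highest in pRb-null skin. The pRb-null arrays had the highest genotype mean in 34 of the 58 (58.6%), against 23.7% of all tested probe sets. The lowest mean lay in double-null skin for 26 (44.8%, against 30.1% of all) and in pRb+/+ skin for 19 (32.8%, against 32.5%). By class, pRb-null skin was highest in 13 of 18 fast-fibre probe sets, 12 of 18 shared sarcomere probe sets and all 3 enzyme probe sets, but in only 1 of 7 embryonic and perinatal probe sets, of which 4 were highest in pRb+/+ skin. The median z-score of the fast-fibre probe sets was -0.26 and -0.9 in double-null skin, 0.9 and 1.18 in pRb-null skin, 0.18 and 0.11 in p107-null skin and -0.97 and -0.46 in pRb+/+ skin. The median of the embryonic and perinatal probe sets was 0.17 and -0.49 in double-null skin, -0.2 and -0.55 in pRb-null skin, -0.39 and 0.0074 in p107-null skin and -0.0066 and 1.48 in pRb+/+ skin. The fast-fibre medians of the pRb-null arrays lay above those of every other array, whereas the embryonic medians of double-null, pRb-null and p107-null skin overlapped with one another and those of pRb-null skin lay below those of pRb+/+ skin. An F test over the 4 genotypes called 5 member probe sets, 1 each of Eno3, Pgam2, Myl1, Myh1 and Tnni1, against 1.28% of all probe sets (limma linear model).

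**Figure D1:**
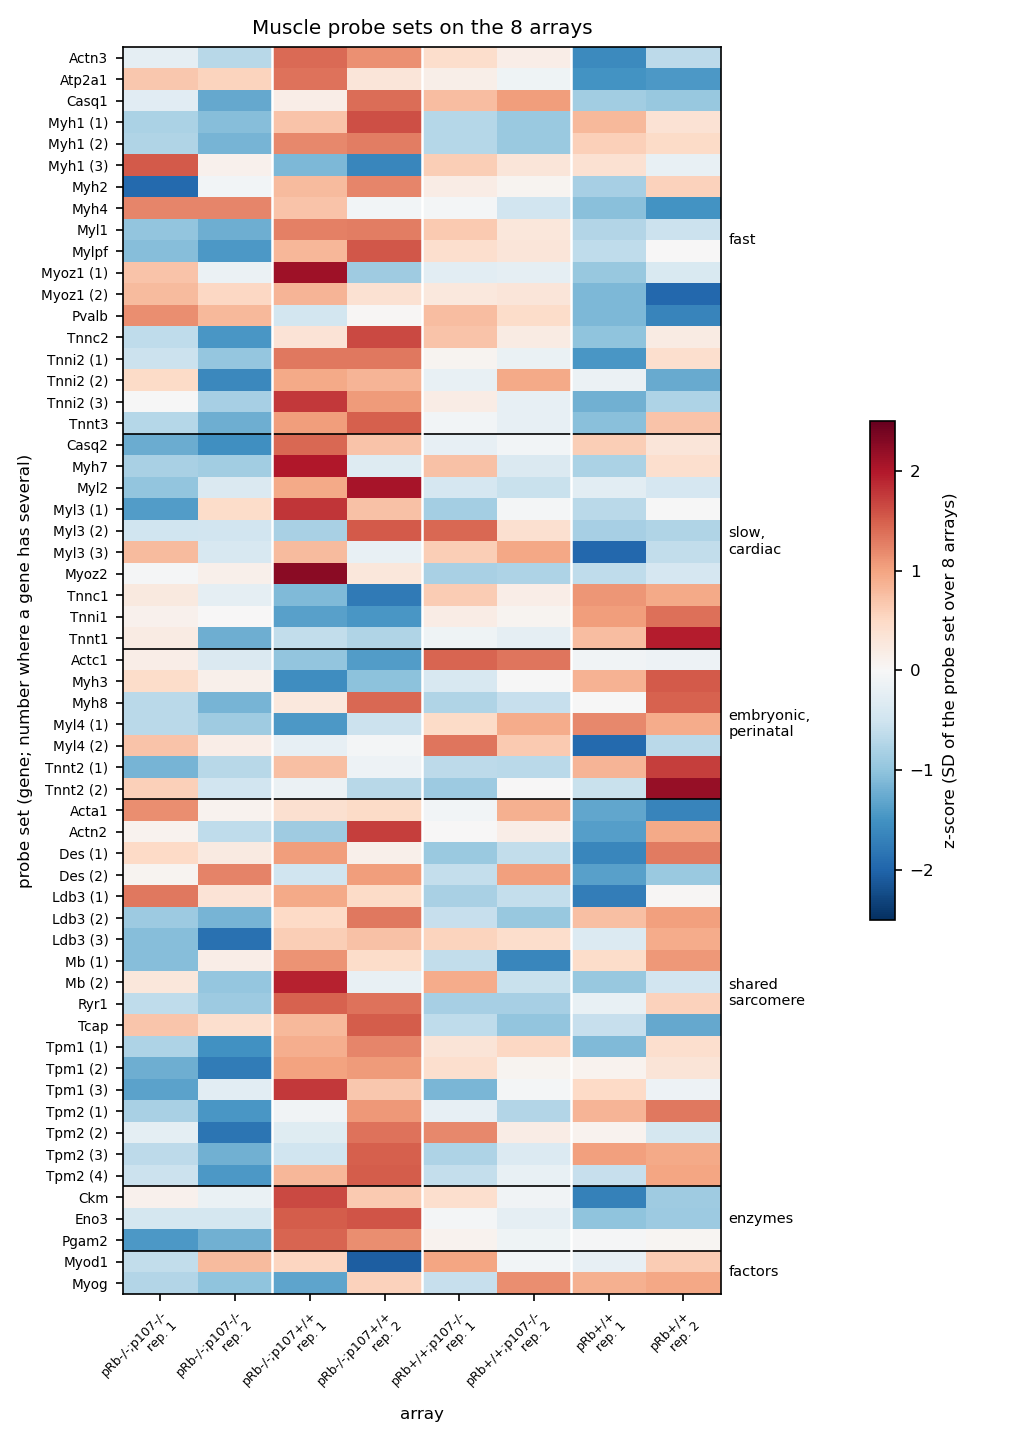
Z-scores (colour, SD units) of the 58 muscle probe sets (rows, grouped by class, with a number where a gene has several probe sets) on the 8 arrays (columns, 2 per genotype). The pRb-/-;p107+/+ columns are red for most fast, shared and enzyme rows and blue for Tnni1, Tnnc1, Myh3 and Actc1.

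The comparison of pRb-/-;p107-/- with pRb-/-;p107+/+ skin asks what losing p107 adds where pRb is already lost, and it had 6 of the 10 calls made over the 5 pairwise comparisons. Here 5 member probe sets fell and 1 rose, together 10.3% of the 58, while 1.37% of all tested probe sets were called, 0.822% as lower and 0.548% as higher. Those that fell encode the glycolytic enzymes Eno3 and Pgam2, the fast myosin light chain Myl1, the fast myosin heavy chain Myh1 and the tropomyosin Tpm1. The slow troponin I gene Tnni1 rose. The other 52 did not pass. Over all members 42 of 58 differences were negative and their median was -1.34. Over all tested probe sets the median was -0.1 and 47.3% were positive.

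Eno3, the muscle enolase of glycolysis, had z-scores of -0.45 and -0.43 in double-null skin, 1.51 and 1.57 in pRb-null skin, -0.058 and -0.23 in p107-null skin and -1.01 and -0.9 in pRb+/+ skin. Both pRb-null arrays lay far above the other 6, and it fell in double-null against pRb-null skin by 1.98 ± 0.076 (limma linear model, adjusted p = 0.0188). Pgam2, the muscle phosphoglycerate mutase that acts just before enolase, had -1.43 and -1.2 in double-null skin, 1.46 and 1.16 in pRb-null skin, 0.092 and -0.12 in p107-null skin and -0.025 and 0.056 in pRb+/+ skin. The double-null arrays were the lowest and the pRb-null arrays the highest, with p107-null and pRb+/+ skin near 0 between them, and it fell by 2.63 ± 0.16 (adjusted p = 0.0246). Ckm, the muscle creatine kinase that buffers ATP, had 0.11 and -0.16 in double-null skin, 1.65 and 0.65 in pRb-null skin, 0.41 and -0.087 in p107-null skin and -1.69 and -0.88 in pRb+/+ skin. Its difference was -1.17 ± 0.5 (adjusted p = 0.317) and short of the threshold. Its pRb-null arrays were again the highest of the 8 but lay well apart from each other.

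Among the fast-fibre isoforms, 14 of 18 probe sets were negative in double-null against pRb-null skin, with a median of -1.78. Myl1, the essential light chain of fast myosin, had -0.98 and -1.21 in double-null skin, 1.26 and 1.29 in pRb-null skin, 0.65 and 0.28 in p107-null skin and -0.73 and -0.55 in pRb+/+ skin. The 4 genotypes did not overlap, and it fell by 2.37 ± 0.17 (limma linear model, adjusted p = 0.0301). Myh1, the myosin heavy chain of type IIx fibres, had -0.76 and -1.16 in double-null skin, 1.21 and 1.29 in pRb-null skin, -0.72 and -0.94 in p107-null skin and 0.59 and 0.48 in pRb+/+ skin in the probe set that was called, whose name (_x_at) marks probes that can bind related transcripts. It parted the p107-positive from the p107-negative genotypes and fell by 2.2 ± 0.17 (adjusted p = 0.0331). Another Myh1 probe set had the same sign (-2.09 ± 0.38), and the remaining one had the opposite sign (2.21 ± 0.58, adjusted p = 0.175), so the direction for Myh1 depends on the probe set. Mylpf, the fast regulatory light chain, differed by -2.45 ± 0.37 (adjusted p = 0.0818), Actn3, the Z-disc actinin of fast fibres, by -1.73 ± 0.4 (adjusted p = 0.144) and Casq1, the calcium store protein of fast fibres, by -1.56 ± 0.56 (adjusted p = 0.259), none of which passed. The exceptions with a positive difference were that Myh1 probe set, Pvalb (1.2 ± 0.3), the IIb myosin gene Myh4 (0.9 ± 0.36) and 1 Myoz1 probe set (0.045 ± 0.35), none of which passed (adjusted p from 0.164 to 0.961).

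The slow and embryonic isoforms split in this comparison. Tnni1, the slow-fibre troponin I that newborn muscle still makes, had 0.11 and 0.0012 in double-null skin, -1.35 and -1.45 in pRb-null skin, 0.19 and 0.059 in p107-null skin and 1.05 and 1.38 in pRb+/+ skin. The pRb-null arrays were the lowest and the pRb+/+ arrays the highest, with the double-null and p107-null arrays overlapping near 0, and it rose in double-null against pRb-null skin by 1.46 ± 0.14 (limma linear model, adjusted p = 0.0438). Tnnc1, the slow and cardiac troponin C, had 0.25 and -0.23 in double-null skin, -1.11 and -1.76 in pRb-null skin, 0.63 and 0.17 in p107-null skin and 1.11 and 0.95 in pRb+/+ skin. Myh3, the embryonic myosin heavy chain, had 0.45 and 0.12 in double-null skin, -1.56 and -1.03 in pRb-null skin, -0.39 and -0.00032 in p107-null skin and 0.86 and 1.54 in pRb+/+ skin. Both had the order of Tnni1, lowest on the pRb-null arrays and highest on the pRb+/+ arrays, but their differences of 1.44 ± 0.33 and 1.59 ± 0.35 did not pass (adjusted p = 0.146 and 0.138). Actc1, the cardiac actin that is the main actin of embryonic muscle, had 0.17 and -0.36 in double-null skin, -0.98 and -1.4 in pRb-null skin, 1.45 and 1.34 in p107-null skin and -0.086 and -0.12 in pRb+/+ skin. It was likewise lowest in pRb-null skin but highest in p107-null skin, and its difference of 1.09 ± 0.24 did not pass (adjusted p = 0.137). Other slow or cardiac isoforms had the opposite sign: Casq2, the cardiac calsequestrin, differed by -2.47 ± 0.31 (adjusted p = 0.0622), Myl2, the slow regulatory light chain, by -2.18 ± 0.45 (adjusted p = 0.125) and Myh7, the slow myosin heavy chain, by -1.68 ± 1.01 (adjusted p = 0.451). In all, 7 of 10 slow and cardiac probe sets were negative with a median of -1.03, and 5 of 7 embryonic and perinatal ones were positive with a median of 0.47.

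**Figure D2:**
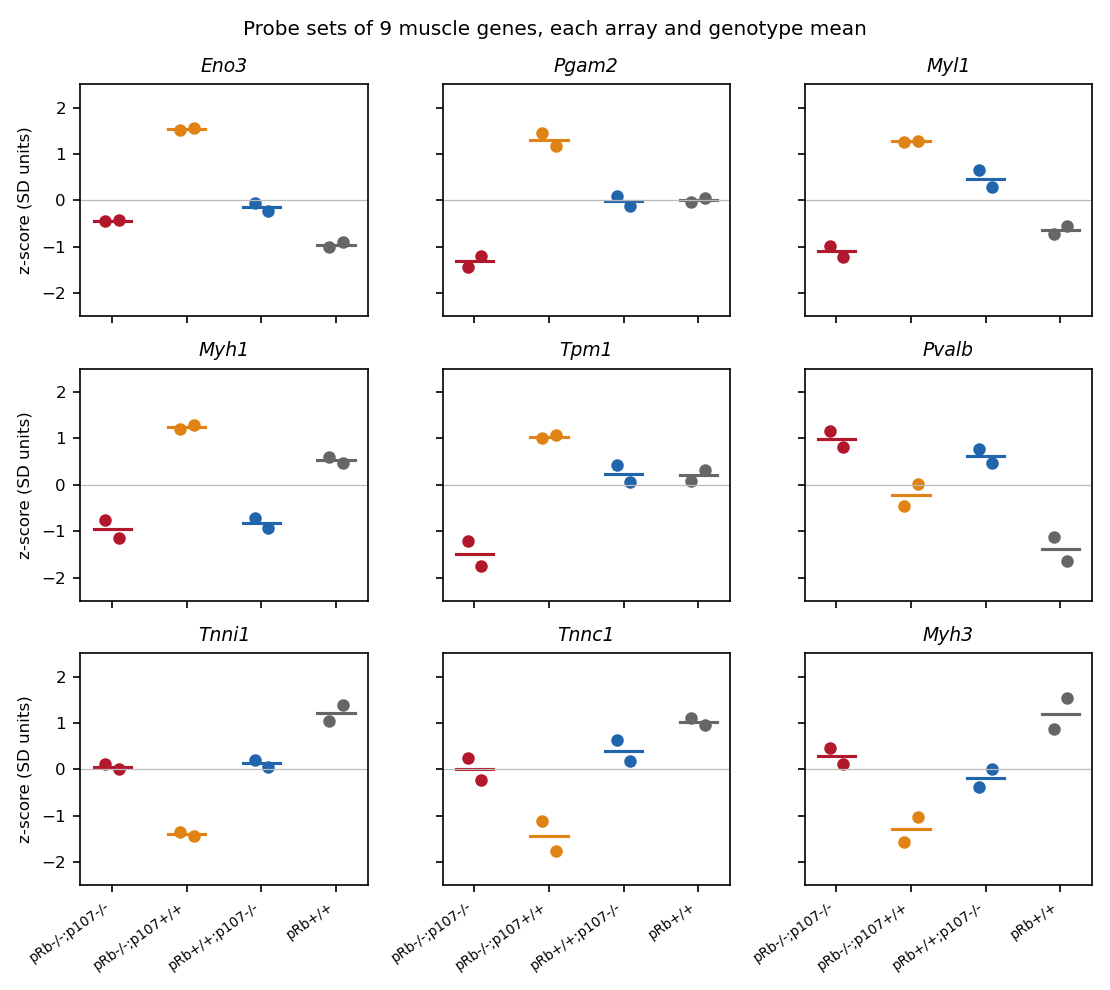
Z-scores (SD units, points: single arrays, lines: genotype means) of 1 probe set each of 9 muscle genes in the 4 genotypes. Eno3, Pgam2, Myl1, Myh1 and Tpm1 are highest in pRb-/-;p107+/+ skin, while Tnni1, Tnnc1 and Myh3 are lowest there and highest in pRb+/+ skin.

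Of the sarcomere genes shared by fibre types, 15 of 18 probe sets were negative in double-null against pRb-null skin (median -1.5). Tpm1, which encodes the tropomyosin alpha chain, had -1.21 and -1.76 in double-null skin, 1.01 and 1.07 in pRb-null skin, 0.42 and 0.059 in p107-null skin and 0.09 and 0.32 in pRb+/+ skin in the probe set that passed. The double-null arrays lay below all others and the pRb-null arrays above them, and it fell by 2.52 ± 0.25 (limma linear model, adjusted p = 0.0455). Both other Tpm1 probe sets had the same sign (-2.21 ± 0.62 and -2.02 ± 0.7), as did all 4 of Tpm2, which ran from -2.16 to -1.42. Ryr1, the calcium release channel, had -0.64 and -0.91 in double-null skin, 1.48 and 1.35 in pRb-null skin, -0.83 and -0.83 in p107-null skin and -0.19 and 0.58 in pRb+/+ skin. Its pRb-null arrays stood above the other 6, and its difference of -2.19 ± 0.29 did not pass (adjusted p = 0.0687). The myogenic factor genes were not called: Myod1 differed by 0.86 ± 1.15 and Myog by -0.5 ± 0.91, with duplicate pRb-null arrays of 0.53 and -2.07 for Myod1.

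With any 1 of the 8 arrays left out, the 6 calls did not hold in the linear model, which then has 1 residual degree of freedom fewer. Calls over all tested probe sets were mostly lost too, so the loss is not particular to the members. The differences kept their sign. They ran from -2.01 to -1.95 for Eno3, -2.78 to -2.48 for Pgam2 and -2.49 to -2.25 for Myl1. For Myh1 they ran from -2.41 to -2.0, for Tpm1 from -2.79 to -2.25 and for Tnni1 from 1.4 to 1.51. Limma's moderated test called 0 members with all arrays. It called 0 of all 22626 tested probe sets here and in every other comparison, so its count is not particular to the members. In the model without moderation 28 members (48.3%) had an unadjusted p below 0.05, against 19.2% of all probe sets. With each array's median subtracted, Eno3, Pgam2, Myl1 and Tnni1 still passed, and after quantile normalization Pgam2 and Tnni1 did. Over all tested probe sets these settings called 137 and 171.

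Other members had orders of their own. Tcap, which binds titin at the Z-disc, had 0.7 and 0.43 in double-null skin, 0.82 and 1.52 in pRb-null skin, -0.63 and -0.98 in p107-null skin and -0.57 and -1.28 in pRb+/+ skin. All 4 arrays of pRb-negative genotypes lay above all 4 of pRb-positive ones, whatever the p107 genotype, and no difference passed (limma linear model, adjusted p = 0.186 for pRb-null against pRb+/+ skin and 0.326 for double-null against p107-null skin). Myl4 parted the same genotypes the other way in the first of its probe sets, with -0.68 and -0.89 in double-null skin, -1.43 and -0.55 in pRb-null skin, 0.47 and 0.94 in p107-null skin and 1.21 and 0.93 in pRb+/+ skin, but not in the second. Acta1, the actin of adult skeletal muscle, had 1.17 and 0.083 in double-null skin, 0.4 and 0.48 in pRb-null skin, -0.07 and 0.89 in p107-null skin and -1.31 and -1.65 in pRb+/+ skin. Both pRb+/+ arrays lay below the other 6, which overlapped, and the difference of double-null from pRb+/+ skin was 2.11 ± 0.53 (adjusted p = 0.135). Myh8, the perinatal myosin heavy chain, had -0.68 and -1.16 in double-null skin, 0.27 and 1.43 in pRb-null skin, -0.75 and -0.58 in p107-null skin and -0.0066 and 1.48 in pRb+/+ skin. Myh2, the heavy chain of type IIa fibres, had -1.95 and -0.067 in double-null skin, 0.8 and 1.22 in pRb-null skin, 0.19 and 0.061 in p107-null skin and -0.83 and 0.57 in pRb+/+ skin. For Myh8 both p107-negative genotypes lay below both p107-positive ones, while the double-null arrays of Myh2 differed too much to set an order. Actn2, the actinin of all fibre types, had the widest spread within genotypes of these, with -0.9 and 1.72 in pRb-null skin and -1.38 and 0.94 in pRb+/+ skin.

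Within the troponin families, fast isoforms stood highest in pRb-null skin and slow ones in pRb+/+ skin. Tnni2, the fast troponin I, had -0.54 and -0.98 in double-null skin, 1.32 and 1.31 in pRb-null skin, 0.076 and -0.16 in p107-null skin and -1.45 and 0.42 in pRb+/+ skin in the first of its probe sets. The next had 0.48 and -1.62 in double-null skin, 0.95 and 0.84 in pRb-null skin, -0.19 and 0.94 in p107-null skin and -0.14 and -1.27 in pRb+/+ skin, and the last had -0.016 and -0.83 in double-null skin, 1.77 and 1.06 in pRb-null skin, 0.18 and -0.2 in p107-null skin and -1.19 and -0.77 in pRb+/+ skin. In the first and the last, both pRb-null arrays lay above the other 6, and in the second they overlapped with p107-null skin. Tnnc2, the fast troponin C, had -0.64 and -1.46 in double-null skin, 0.33 and 1.65 in pRb-null skin, 0.71 and 0.21 in p107-null skin and -1.0 and 0.2 in pRb+/+ skin. Tnnt3, the fast troponin T, had -0.71 and -1.22 in double-null skin, 1.05 and 1.5 in pRb-null skin, -0.076 and -0.2 in p107-null skin and -1.05 and 0.71 in pRb+/+ skin. The pRb-null arrays of Tnnt3 lay above all others, while those of Tnnc2 overlapped with p107-null skin. Tnnt1, the slow troponin T, had 0.2 and -1.23 in double-null skin, -0.62 and -0.76 in pRb-null skin, -0.1 and -0.23 in p107-null skin and 0.77 and 1.96 in pRb+/+ skin, and the pRb+/+ arrays lay above the other 6. Tnnt2 had -1.17 and -0.7 in double-null skin, 0.75 and -0.12 in pRb-null skin, -0.65 and -0.68 in p107-null skin and 0.85 and 1.72 in pRb+/+ skin in 1 probe set, also highest in pRb+/+ skin. The other had 0.6 and -0.49 in double-null skin, -0.14 and -0.69 in pRb-null skin, -0.92 and 0.0074 in p107-null skin and -0.55 and 2.18 in pRb+/+ skin, where all genotypes overlapped.

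The calsequestrins, myozenins and myosins did not part in this way. Casq1 had -0.29 and -1.27 in double-null skin, 0.18 and 1.39 in pRb-null skin, 0.78 and 1.04 in p107-null skin and -0.88 and -0.94 in pRb+/+ skin. Casq2 had -1.24 and -1.54 in double-null skin, 1.44 and 0.71 in pRb-null skin, -0.21 and -0.071 in p107-null skin and 0.61 and 0.3 in pRb+/+ skin. For Casq2 the double-null arrays lay below and the pRb-null arrays above all others, whereas for Casq1 the pRb-null arrays lay on either side of p107-null skin. Myoz1 had 0.72 and -0.15 in double-null skin, 2.12 and -0.9 in pRb-null skin, -0.26 and -0.21 in p107-null skin and -0.94 and -0.37 in pRb+/+ skin in the first probe set. It had 0.78 and 0.52 in double-null skin, 0.84 and 0.37 in pRb-null skin, 0.27 and 0.29 in p107-null skin and -1.12 and -1.96 in pRb+/+ skin in the second. Myoz2, the myozenin of slow fibres and heart, had -0.033 and 0.13 in double-null skin, 2.25 and 0.29 in pRb-null skin, -0.81 and -0.78 in p107-null skin and -0.64 and -0.41 in pRb+/+ skin. Both pRb+/+ arrays of the second Myoz1 probe set lay below the rest, and both pRb-null arrays of Myoz2 were its highest although far apart. Myh7 had -0.82 and -0.87 in double-null skin, 2.0 and -0.33 in pRb-null skin, 0.74 and -0.36 in p107-null skin and -0.8 and 0.42 in pRb+/+ skin, with a single high pRb-null array. Myh1 had -0.79 and -1.06 in double-null skin, 0.71 and 1.62 in pRb-null skin, -0.71 and -0.92 in p107-null skin and 0.81 and 0.35 in pRb+/+ skin in the first of its other probe sets, in the same order as the called one. The remaining probe set had 1.54 and 0.11 in double-null skin, -1.13 and -1.63 in pRb-null skin, 0.62 and 0.3 in p107-null skin and 0.39 and -0.19 in pRb+/+ skin, with the pRb-null arrays the lowest.

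Members at the ends of other comparisons varied between probe sets of 1 gene. Ldb3, which anchors the Z-disc, had 1.33 and 0.34 in double-null skin, 0.95 and 0.49 in pRb-null skin, -0.81 and -0.6 in p107-null skin and -1.72 and 0.027 in pRb+/+ skin in the first probe set. The second had -0.91 and -1.16 in double-null skin, 0.5 and 1.32 in pRb-null skin, -0.57 and -0.96 in p107-null skin and 0.75 and 1.03 in pRb+/+ skin, and the last had -1.06 and -1.87 in double-null skin, 0.62 and 0.74 in pRb-null skin, 0.55 and 0.43 in p107-null skin and -0.33 and 0.93 in pRb+/+ skin. Double-null skin was thus high in the first along with pRb-null skin and lowest in the last, and the second put the p107-negative below the p107-positive genotypes. Tpm2, the tropomyosin beta chain, had -0.81 and -1.45 in double-null skin, -0.08 and 1.08 in pRb-null skin, -0.2 and -0.73 in p107-null skin and 0.86 and 1.33 in pRb+/+ skin in the first of its probe sets. It had -0.25 and -1.82 in double-null skin, -0.3 and 1.36 in pRb-null skin, 1.2 and 0.18 in p107-null skin and 0.085 and -0.45 in pRb+/+ skin in the second. The first had its highest mean in pRb+/+ skin, which overlapped with pRb-null skin, and the second had wide gaps between double-null and between pRb-null duplicates. Mb, the oxygen-binding myoglobin, had -1.06 and 0.17 in double-null skin, 1.12 and 0.46 in pRb-null skin, -0.61 and -1.62 in p107-null skin and 0.45 and 1.08 in pRb+/+ skin in 1 probe set, where the p107-negative lay below the p107-positive genotypes, but not in the other, where double-null and p107-null skin each overlapped with both remaining genotypes. Myl3, the slow and ventricular light chain, had 0.79 and -0.4 in double-null skin, 0.79 and -0.18 in pRb-null skin, 0.62 and 0.97 in p107-null skin and -1.97 and -0.61 in pRb+/+ skin in the last of its probe sets, with both pRb+/+ arrays the lowest.

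Skin of pRb-/-;p107+/+ mice against pRb+/+ skin compares the pRb genotypes where p107 was kept or, for pRb+/+ skin, is taken as kept. No member passed, and 0% of all probe sets did (limma linear model, smallest adjusted p of a member 0.0517, for Eno3). At an unadjusted p below 0.05, 24 of 58 members (41.4%) stood out, 18 with a positive and 6 with a negative difference, against 13.4% of all probe sets. Limma's moderated test also called 0 members and 0 of all probe sets. Positive differences numbered 45 of 58, with a median of 1.16 against 0.12 over all tested probe sets, of which 53.7% were positive. The comparison shares the pRb-null arrays with the one above. In the same way the comparisons below share arrays with those above, each having 1 genotype or both in common with another.

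The most positive differences were those of the energy and fast-fibre genes. Eno3 differed by 2.49 ± 0.076 (adjusted p = 0.0517), Ckm by 2.44 ± 0.5 (adjusted p = 0.212) and Actn3 by 2.4 ± 0.4 (adjusted p = 0.171). Actn3 had 1.42 and 1.14 in pRb-null skin, against -1.59 and -0.65 in pRb+/+ skin, without overlap. Of the fast-fibre probe sets 17 of 18 were positive with a median of 1.54, the exception being the discordant Myh1 probe set (-1.48 ± 0.58). Atp2a1, the calcium pump of fast fibres, had 1.35 and 0.3 in pRb-null skin, against -1.48 and -1.44 in pRb+/+ skin, and its difference of 2.29 ± 0.39 did not pass (adjusted p = 0.173). The pump's pRb+/+ arrays agreed closely while the pRb-null ones lay apart, both on the higher side.

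The most negative differences belonged to slow and embryonic isoforms. Tnni1 differed by -2.62 ± 0.14 (adjusted p = 0.076), Myh3 by -2.5 ± 0.35 (adjusted p = 0.153) and Tnnc1 by -2.46 ± 0.33 (adjusted p = 0.143). Tnnt1 had the same sign (-2.05 ± 0.66, adjusted p = 0.34). All 3 slow troponin genes were thus lower in pRb-null skin without overlap, although none passed. The fast troponins had the opposite sign: Tnni2 differed by 1.83 ± 0.68, 1.6 ± 0.93 and 2.39 ± 0.43 in its 3 probe sets, Tnnc2 by 1.4 ± 0.72 and Tnnt3 by 1.45 ± 0.67. The slow myosin gene Myh7 (1.02 ± 1.01), the slow light chain genes Myl2 (1.85 ± 0.45) and Myl3 (3 probe sets, 1.16 to 1.6), Casq2 (0.62 ± 0.31) and Myoz2 (1.79 ± 0.7) were positive, so the slow class as a whole had a median of 1.09 with 7 of 10 positive. The embryonic and perinatal probe sets had a median of -1.09 with 5 of 7 negative. That the slow troponins and the slow myosins part in sign was noticed after the values were seen, and it was not tested.

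**Figure D3:**
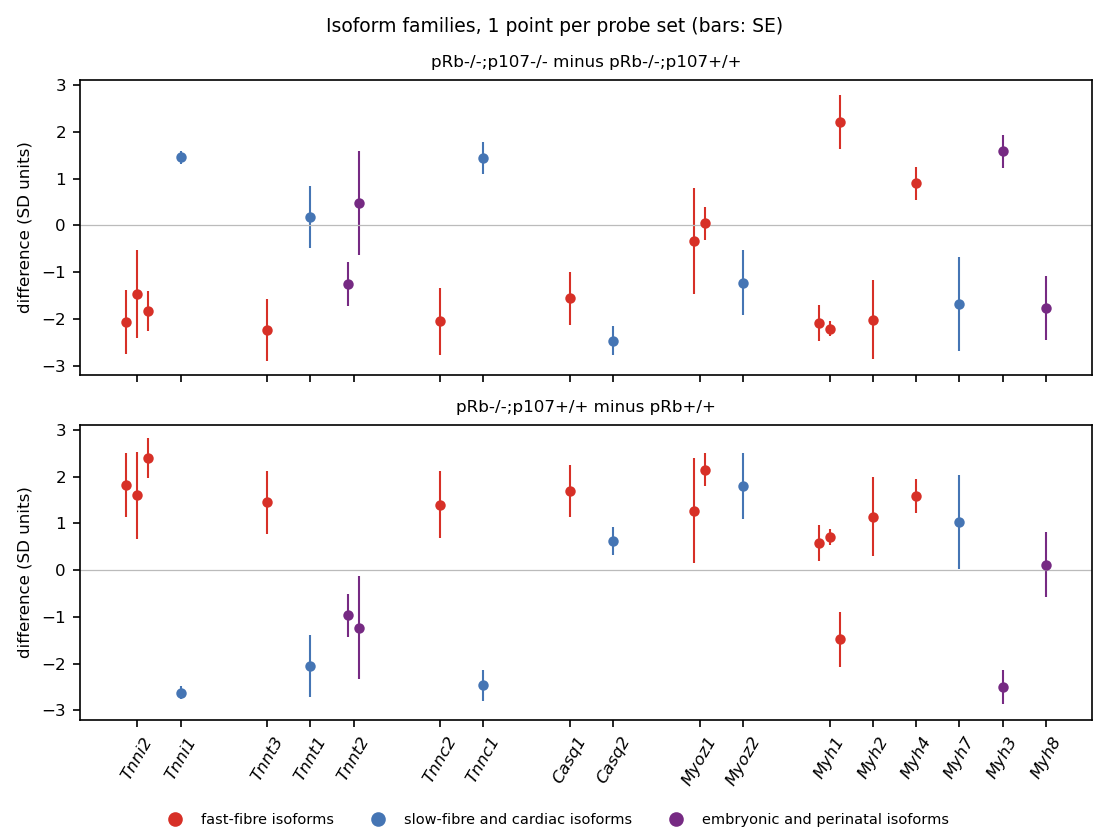
Differences in z-score (SD units, points: single probe sets, bars: SE of the linear model) of isoform families for pRb-/-;p107-/- minus pRb-/-;p107+/+ (upper panel) and pRb-/-;p107+/+ minus pRb+/+ (lower panel), with fast isoforms left of slow and embryonic ones in each family. Both panels use the pRb-/-;p107+/+ arrays. Fast and slow troponins lie on opposite sides of 0 for Tnni and Tnnc, while the calsequestrin, myozenin and myosin families do not part by fibre type.

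Set against each other, fast-fibre isoforms lay above slow, cardiac, embryonic and perinatal isoforms in pRb-null against pRb+/+ skin: the median difference was 1.54 for the 18 fast probe sets and 0.11 for the 17 others, a gap of 1.43. In double-null against pRb-null skin the same medians were -1.78 and -0.11, a gap of -1.67. The gap was 1.28 in p107-null against pRb+/+ skin, 0.89 in double-null against pRb+/+ skin and -0.22 in double-null against p107-null skin. The median of the slow and embryonic probe sets, near 0 in the first 2 of these comparisons, took the other sign with array medians subtracted. It did so too without either pRb-null array or pRb+/+ replicate 1 in the first, and without double-null or pRb-null replicate 2 and after quantile normalization in the second. In pRb-null against pRb+/+ skin it was also -0.97 when only 1 probe set stood for a gene, which widened the gap to 2.48. The gap between double-null and p107-null skin became positive without either double-null array, at 0.05 without replicate 1 and 0.29 without replicate 2. The gaps are descriptions and were given no test.

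**Figure D4:**
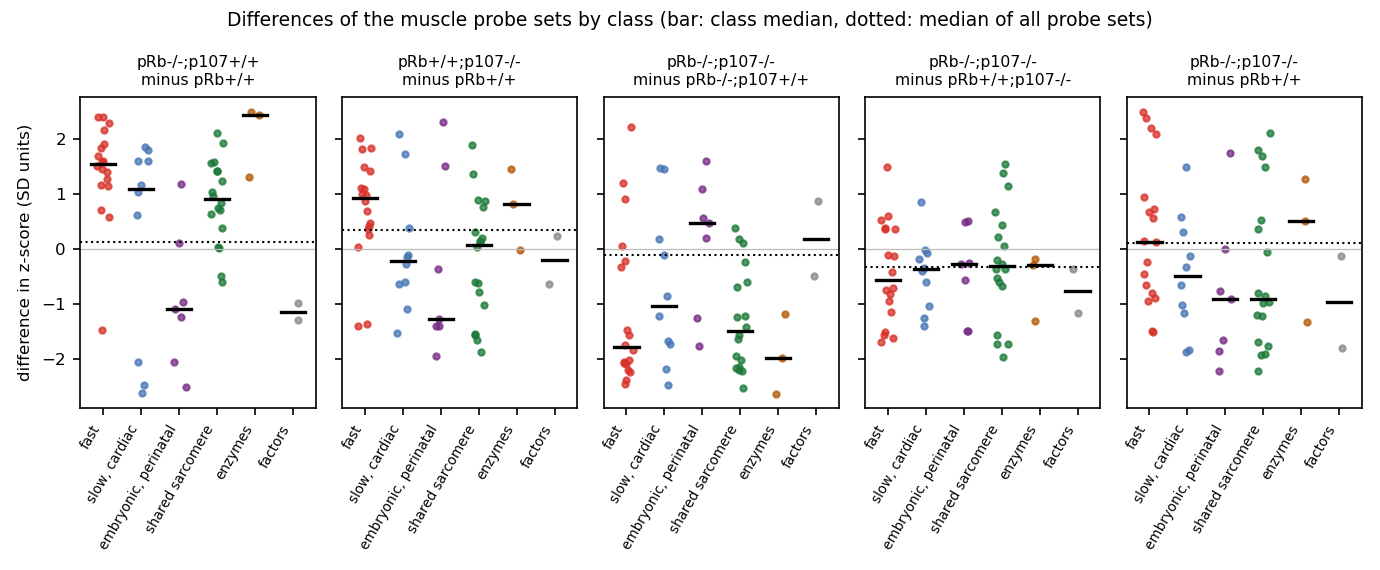
Differences in z-score (SD units) of the muscle probe sets (points) by class in the 5 pairwise comparisons, with the class median (bar) and the median of all 22626 tested probe sets (dotted line). Fast, shared and enzyme genes lie mostly above the dotted line in pRb-/-;p107+/+ minus pRb+/+ and mostly below it in pRb-/-;p107-/- minus pRb-/-;p107+/+, and the 2 comparisons share the pRb-/-;p107+/+ arrays.

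Skin lacking both proteins (pRb-/-;p107-/-) against pRb+/+ skin had 4 called member probe sets, 6.9% of 58, against 2.94% of all tested probe sets (1.41% higher and 1.54% lower). Pvalb rose, and Pgam2, Tnni1 and 1 Myh1 probe set fell, while 54 did not pass. Pvalb, the calcium buffer of fast fibres in rodents, had 1.16 and 0.81 in double-null skin, -0.47 and 0.029 in pRb-null skin, 0.78 and 0.46 in p107-null skin and -1.12 and -1.64 in pRb+/+ skin. Its pRb+/+ arrays were the lowest and its double-null arrays the highest, and it rose by 2.37 ± 0.3 (limma linear model, adjusted p = 0.0499). Tnni1 fell by 1.16 ± 0.14 (adjusted p = 0.0454), Pgam2 by 1.33 ± 0.16 (adjusted p = 0.0445) and Myh1 by 1.49 ± 0.17 (adjusted p = 0.0429), in the per-array values given above. The second Myh1 probe set had the same sign (-1.5 ± 0.38) and the discordant one did not (0.73 ± 0.58).

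Other members did not pass in this comparison. Myh4, the myosin of type IIb fibres, had 1.21 and 1.22 in double-null skin, 0.71 and -0.077 in pRb-null skin, -0.04 and -0.49 in p107-null skin and -1.04 and -1.49 in pRb+/+ skin. Both double-null arrays were its highest and both pRb+/+ arrays its lowest, and the difference of 2.48 ± 0.36 did not pass (adjusted p = 0.0571). Myoz1, a Z-disc protein of fast fibres, differed by 2.19 ± 0.35 (adjusted p = 0.0688) in the second of its probe sets, and Atp2a1 by 2.08 ± 0.39 (adjusted p = 0.0853). Tpm2 differed by -2.22 ± 0.53 (adjusted p = 0.125) in the first of its 4 probe sets, and the other 3 were negative too. Tnnt2, the cardiac troponin T that embryonic skeletal muscle also makes, differed by -2.22 ± 0.47 (adjusted p = 0.102), although its cross-reacting _x_at probe set differed by -0.76 ± 1.11. Ldb3 differed by -1.92 ± 0.35 (adjusted p = 0.0826) in 1 probe set and by 1.68 ± 0.73 in another. The median over all members was -0.56 with 35 of 58 negative, against 0.1 over all tested probe sets.

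With any 1 of the 8 arrays left out, these 4 calls did not hold in the linear model, and calls over all tested probe sets became fewer too. Limma's moderated test called 0 members and 0 of all probe sets. With array medians subtracted Pgam2 and Tnni1 passed, and after quantile normalization Tnni1 did. Of all 22626 tested probe sets, these settings called 606 and 370 in this comparison. Without either pRb-null array, which this comparison uses only for its estimate of spread, the difference of Atp2a1 was 2.08 ± 0.12.

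Loss of p107 where pRb was kept (pRb+/+;p107-/- against pRb+/+) left every member short of the threshold, while 0.42% of all probe sets passed, 0.203% as higher and 0.217% as lower (limma linear model). At an unadjusted p below 0.05 there were 22 members (37.9%, against 19.4% of all), and limma's moderated test called 0 members and 0 of all probe sets. Signs were mixed, with 34 of 58 positive against 58.8% of all probe sets, and a median of 0.22 against 0.35. The members' median became -0.097 with array medians subtracted and -0.2 without pRb+/+ replicate 1. Myl4, the light chain of atrial and embryonic muscle, headed the positive end in 1 probe set with 1.34 and 0.65 in p107-null skin, against -1.94 and -0.67 in pRb+/+ skin, a difference of 2.3 ± 0.55 (adjusted p = 0.16), while its other probe set differed by -0.36 ± 0.37. Next came Myl3 in the last of its probe sets (2.08 ± 0.74, adjusted p = 0.252) and Pvalb (2.0 ± 0.3, adjusted p = 0.0924). Of the 3 Myl3 probe sets, 2 were positive and 1 was negative. The negative end held Tnnt2 (-1.95 ± 0.47, adjusted p = 0.16), 1 Ldb3 probe set (-1.65 ± 0.35, adjusted p = 0.136) and Mb (-1.88 ± 0.65 in 1 probe set, 0.89 ± 1.02 in the other). Of the 3 Ldb3 probe sets, 2 were positive. Tnni1 differed by -1.09 ± 0.14 (adjusted p = 0.0784) and Actc1 by 1.5 ± 0.24 (adjusted p = 0.0983). Both are genes of newborn muscle, and their signs were opposite.

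Loss of pRb where p107 was absent (pRb-/-;p107-/- against pRb+/+;p107-/-) likewise called no member, against 0.256% of all probe sets, 0.177% as higher and 0.0796% as lower (limma linear model). There were 12 members at an unadjusted p below 0.05 (20.7%, against 12%), and the moderated test called 0 members and 0 of all probe sets. The members' median of -0.36 with 42 of 58 negative was close to the -0.33 over all tested probe sets, of which 37.4% were positive. Eno3 differed by -0.29 ± 0.076 and Tnni1 by -0.069 ± 0.14, where pRb-null and pRb+/+ skin had differed by 2.49 ± 0.076 and -2.62 ± 0.14. Pgam2 (-1.3 ± 0.16, adjusted p = 0.109), Myl1 (-1.56 ± 0.17, adjusted p = 0.0915) and Tpm1 (-1.72 ± 0.25, adjusted p = 0.138) were lower in double-null skin without overlap, whereas Myh4 (1.48 ± 0.36), the Z-disc gene Tcap (1.37 ± 0.39, adjusted p = 0.326) and 1 Ldb3 probe set (1.54 ± 0.73) were higher. The 2 other Ldb3 probe sets were negative, the last of them the most negative of all members (-1.96 ± 0.53, adjusted p = 0.315).

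Whether the effect of the pRb genotype differed with p107 was tested as an interaction, which called no member (smallest adjusted p 0.0765) and 0% of all probe sets (limma linear model, moderated test also 0 members and 0 of all probe sets). At an unadjusted p below 0.05 there were 21 members (36.2%, against 13.1%). The interaction terms of Eno3, Myl1 and Pgam2 were -2.79 ± 0.11, -3.47 ± 0.24 and -2.6 ± 0.22 (adjusted p = 0.0765, 0.0766 and 0.0881), and that of Tnni1 was 2.55 ± 0.2 (adjusted p = 0.0817). Of the fast-fibre probe sets 17 of 18 had a negative term with a median of -2.27, against -0.44 over all tested probe sets, of which 40.1% had a positive term. With 1 probe set per gene, Eno3 was the only member that passed (limma linear model, adjusted p = 0.0465), where 4 of all 12393 probe sets did.

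Several genes were measured by more than 1 probe set. Of the 11 member genes with 2 or more probe sets, all probe sets had the same sign in 8 for pRb-null against pRb+/+ skin, in 6 for double-null against pRb-null skin and in 3 for p107-null against pRb+/+ skin. Myh1, Myl3, Tnni2, Tpm1 and Ldb3 have 3 each and Tpm2 has 4. Des, the intermediate filament gene of all muscle, had -1.63 and 1.3 on the pRb+/+ arrays in 1 probe set, the widest gap of any member in that genotype. Myoz1 had the widest in pRb-null skin, 2.12 and -0.9 in 1 probe set, while the other had 0.84 and 0.37. For Eno3, Pgam2, Myl1, Tnni1 and Pvalb, 1 probe set is all there is.

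Further muscle genes outside the 42, in 5 lists of 100 genes of which 83 had 150 probe sets, had the sign of the members in the first 2 of the comparisons that follow and not in the last. In double-null against pRb-null skin 94 of the 150 were negative, with a median of -0.57, and 4 fell and 0 rose (limma linear model). In pRb-null against pRb+/+ skin 112 were positive with a median of 0.71, and none passed. In double-null against pRb+/+ skin 77 were positive with a median of 0.11, and 3 rose and 2 fell, where the members had a median of -0.56 with 1 that rose and 3 that fell. Of all tested probe sets, 1.37% were called in double-null against pRb-null skin and 0% in pRb-null against pRb+/+ skin. In double-null against pRb+/+ skin 2.94% were called.

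The 4 that fell in double-null against pRb-null skin were Ckmt2, the mitochondrial creatine kinase of muscle (2.23 ± 0.12, limma linear model, adjusted p = 0.0228), Cox8b, a cytochrome oxidase subunit of heart, muscle and brown fat (2.08 ± 0.18, adjusted p = 0.0384), and 1 probe set each of the small heat shock gene Cryab (2.4 ± 0.16, adjusted p = 0.028) and of Mef2c, a transcription factor of muscle genes (2.5 ± 0.26, adjusted p = 0.0499). Ckmt2 had -0.77 and -0.72 in double-null skin, 1.37 and 1.61 in pRb-null skin, -0.72 and -0.95 in p107-null skin and 0.11 and 0.058 in pRb+/+ skin, with the pRb-null arrays above all others. Metabolic genes of muscle were negative in 20 of 29 probe sets (median -1.26), as were 19 of 27 of excitation and calcium release (median -0.97). The figures were 17 of 30 for giant and scaffold proteins of the sarcomere, 16 of 27 for the neuromuscular junction and membrane and 22 of 37 for myogenic regulators. In pRb-null against pRb+/+ skin, 25 of 29 metabolic probe sets were positive with a median of 1.16, led by Pygm, the muscle glycogen phosphorylase (2.46 ± 0.23), and Cox6a2 (2.21 ± 0.71), neither of which passed (adjusted p = 0.104 and 0.337). Giant and scaffold genes were positive in 26 of 30 (median 0.95), led by Tmod4, which caps actin filaments in muscle (2.31 ± 0.19, adjusted p = 0.0896).

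In double-null against pRb+/+ skin, 1 probe set each of Hspb7 (2.17 ± 0.25, limma linear model, adjusted p = 0.0434), Art1, an ADP-ribosyltransferase of muscle (2.42 ± 0.3, adjusted p = 0.0471), and Utrn, the relative of dystrophin (1.98 ± 0.23, adjusted p = 0.0453), rose. Cox8b (1.47 ± 0.18) and 1 probe set of Cryab (2.05 ± 0.16) fell. These were 3 that rose and 2 that fell among 150 probe sets. Of all tested probe sets, 1.41% were called as higher and 1.54% as lower, so the calls were near the share over the whole array. The other probe sets of Hspb7, Art1 and Cryab had the sign of the called one but were not called. Another Utrn probe set differed by -1.99 ± 0.4 (adjusted p = 0.0951), with the opposite sign.

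Markers of other cell types in the extract differed along with the muscle genes. Adipocyte markers, 22 probe sets of 13 genes, were negative in 18 for double-null against pRb-null skin (median -1.87, 2 fell) and positive in 19 for pRb-null against pRb+/+ skin (median 1.25). Their mean z-score was -0.43 and -0.88 in double-null skin, 0.72 and 0.87 in pRb-null skin, 0.16 and 0.21 in p107-null skin and -0.33 and -0.32 in pRb+/+ skin, in the same order of genotypes as the fast-fibre isoforms except that double-null skin was lowest. Smooth muscle markers, 14 probe sets of 10 genes, were negative in 11 (median -1.43) and positive in 12 (median 0.99) in the same comparisons. Their mean was -0.27 and -0.58 in double-null skin, 0.91 and 0.19 in pRb-null skin, 0.063 and 0.31 in p107-null skin and -0.31 and -0.31 in pRb+/+ skin. Cardiac muscle markers, 15 probe sets of 10 genes, had the other sign in double-null against pRb-null skin (11 positive, median 0.66) and a mean of 0.13 and 0.6 in double-null skin, 0.18 and -0.34 in pRb-null skin, 0.038 and 0.37 in p107-null skin and -0.68 and -0.3 in pRb+/+ skin. Brown adipocyte markers, which share Cox8b and Cox7a1 with the muscle lists, had a median of -0.76 with 2 of 16 that fell. Markers of keratinocytes, the main cells of the epidermis, ran the other way in double-null against pRb-null skin, with 15 of 18 probe sets positive (median 1.18). Their means were 0.84 and 0.4 in double-null skin, -0.52 and -0.36 in pRb-null skin, 0.15 and 0.11 in p107-null skin and -0.46 and -0.17 in pRb+/+ skin. In pRb-null against pRb+/+ skin 11 were negative (median -0.42), but the means overlapped. Of the 4 keratinocyte probe sets with an unadjusted p below 0.05 there (limma linear model), 3 were higher. Fibroblast markers were negative in 12 of 17 (median -0.91) and Schwann cell and nerve markers in 16 of 21 (median -0.91, 1 fell) in double-null against pRb-null skin, but in pRb-null against pRb+/+ skin they had medians of -0.18 and -0.3. Z-scores do not show whether a defining marker is near 0, and the part of these tissues in the muscle differences was not tested.

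The array controls differed too. The 3 control probe sets for mouse beta-actin had a mean of -1.0 and -1.08 in double-null skin, 1.21 and 1.41 in pRb-null skin, 0.05 and -0.022 in p107-null skin and 0.3 and -0.86 in pRb+/+ skin, highest in pRb-null and lowest in double-null skin as for Pgam2 and Tpm1. The 24 poly-A controls, which do not measure mouse RNA, had means of -0.91 and -0.96 in double-null skin, 1.38 and 1.13 in pRb-null skin, -0.57 and -0.55 in p107-null skin and 0.3 and 0.19 in pRb+/+ skin, lower in both p107-negative than in both p107-positive genotypes. They too were highest in pRb-null and lowest in double-null skin, as were Pgam2 and Tpm1. Their genotype means had the same order as those of the called Myh1 probe set. The 18 hybridization controls had means of -0.64 and -0.32 in double-null skin, 0.093 and -0.035 in pRb-null skin, -0.8 and -0.71 in p107-null skin and 0.37 and 2.05 in pRb+/+ skin. The 3 Gapdh controls had means of 0.037 and -0.031 in double-null skin, 0.84 and 0.77 in pRb-null skin, 0.8 and 0.57 in p107-null skin and -1.47 and -1.52 in pRb+/+ skin, lowest in pRb+/+ skin, as were Eno3 and Ckm. The poly-A and the hybridization controls differed without overlap in all 5 pairwise comparisons, and so did the Gapdh controls. Their part in the muscle results was not tested. Labels and table give no scan date or batch.

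**Figure D5:**
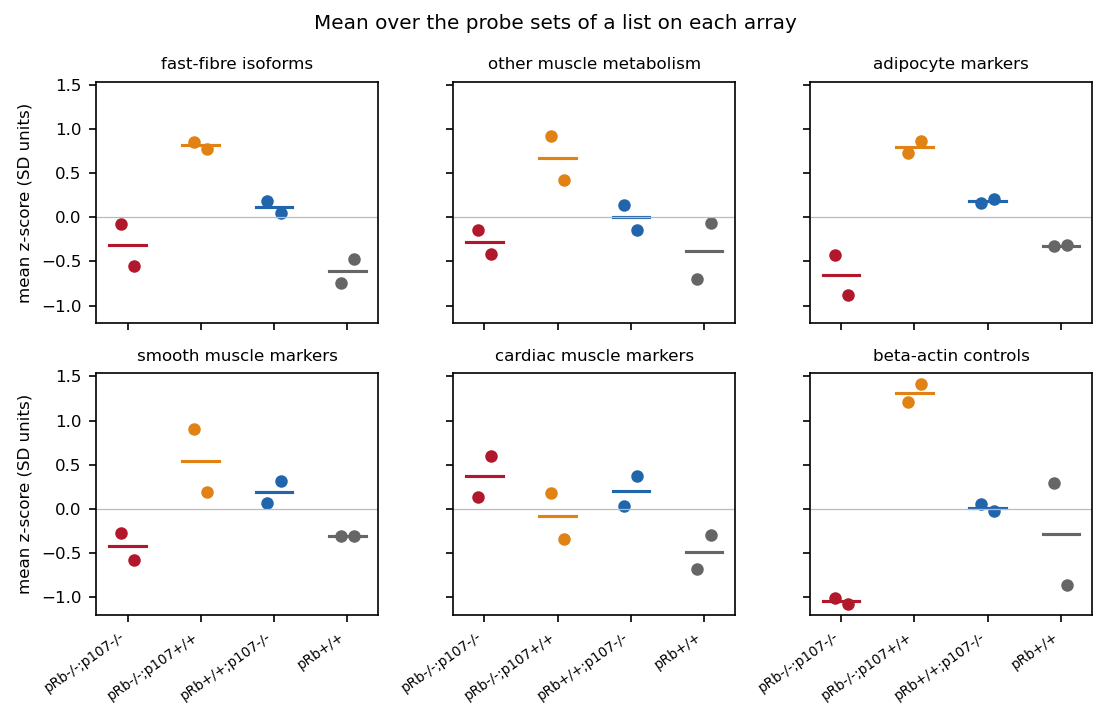
Mean z-score (SD units) on each array (points, lines: genotype means) of the 18 fast-fibre probe sets and of 4 fixed lists and the beta-actin controls. Fast-fibre, metabolic, adipocyte, smooth muscle and beta-actin means are all highest in pRb-/-;p107+/+ skin, and the cardiac markers are not.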

How the data were processed

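Total RNA was extracted from 30 mg of newborn skin and labelled with biotin for Affymetrix arrays, per the labels' protocols. The submitters' processing notes name RMA, with no version. The values the authors deposited are scores: each probe set has mean 0 and SD 1 over the 8 arrays, a standardization that the labels do not record, and whether log or linear values were standardized is not known. A z-score over 8 arrays cannot exceed 2.47 in size, so differences saturate.

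The 64 array controls were left out of the tests. Probe sets were named from the platform annotation. The symbols of the 58 member probe sets are current in the gene table. A coefficient per genotype was fitted with limma 3.58.1 in R 4.3.3, and the model's t and F without moderation were used. The reason was that on scores the moderated variance is tied to the differences, which was not tested. Simulated scores were used to check only the t without moderation. Alternatives were moderation, quantile normalization, array medians subtracted, a replicate block, each array left out, 1 probe set per gene and no _x_at or _s_at probe sets. Figures were drawn with matplotlib 3.10.9.

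Members, classes and lists were chosen with earlier results of these data known. Values per array are given for called member probe sets, for the 3 most positive and 3 most negative of each pairwise comparison and for the troponin, calsequestrin, myozenin and myosin heavy chain families, with further members as examples. Sequences come from RefSeq.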

Additional observations from a re-analysis of the deposited data

How the results depend on the processing

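The 36 named pairs of a member probe set and a comparison were picked for a call or for a large difference. None reversed its sign after quantile normalization, with array medians subtracted or with an array left out. Moderation and the replicate block cannot change a difference. The settings with fewer probe sets drop some of these pairs. With 1 probe set per gene, the discordant probe set stands for Myh1 (2.21 ± 0.58 in double-null against pRb-null skin). Calls depended on the setting. In double-null against pRb-null skin the 6 calls became 0 with the moderated test, 2 after quantile normalization and 0 with the replicate block. Over all 22626 tested probe sets the calls went from 310 to 0, 171 and 2 in the same settings. The 6 calls did not hold with an array left out. In double-null against pRb+/+ skin the 4 calls became 0 with the moderated test and with the replicate block. They became 1 after quantile normalization and 2 with array medians subtracted. Over all tested probe sets the calls went from 666 to 0, 37, 370 and 606 in these settings. With 1 probe set per gene or without _x_at and _s_at probe sets 2 members were called, against 345 of 12393 and 536 of 19645 of all. The 4 calls did not hold with an array left out. The 5 probe sets called among the 4 genotypes became 0 with the moderated test and with the replicate block. They became 1 after quantile normalization and 3 with array medians subtracted. Over all tested probe sets the calls went from 289 to 0, 3, 150 and 97 in these settings. The 5 calls did not hold with an array left out. The block leaves 3 residual degrees of freedom. Deviations of same-numbered arrays had correlations of -0.131 to 0.105 between genotypes. The labels do not say whether same-numbered arrays share a batch, and this was not tested. The comparison of pRb-null with pRb+/+ skin gained 1 member call, Eno3, with 1 probe set per gene and without _x_at and _s_at probe sets. Over all probe sets these settings called 5 of 12393 and 5 of 19645. The interaction gained 1 member call, Eno3, with 1 probe set per gene, where 4 of 12393 were called. The counts of 0 in the other 2 comparisons stayed 0, also with an array left out (0 to 0). The gap between fast and slow or embryonic medians became 1.25 after quantile normalization, 2.48 with 1 probe set per gene and 2.51 without _x_at and _s_at probe sets in pRb-null against pRb+/+ skin (1.32 to 1.93 with an array left out). With 1 probe set per gene it was 1.46 in p107-null against pRb+/+ skin (0.95 to 1.43) and 1.15 in double-null against pRb+/+ skin (0.69 to 1.51). In double-null against p107-null skin it was -0.40 with 1 probe set per gene and -0.39 without _x_at and _s_at (-0.22 to 0.29). It ran from -1.83 to -1.43 in double-null against pRb-null skin with an array left out, and for the interaction it was -1.62 after quantile normalization (-2.27 to -1.22). Fewer arrays leave 3 degrees of freedom, and a genotype's lone array is then assumed to vary like the others. Other causes were not tested. Background correction, a filter on dim probe sets and slide as a block could not be tried on scores.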

Other observations

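Genes of the nerve contact and the membrane of muscle fibres had mixed signs. In double-null against pRb-null skin, Musk, the receptor kinase that gathers acetylcholine receptors at the synapse (2.02 ± 0.68, adjusted p = 0.24, limma linear model), and Sgca, a sarcoglycan of the membrane complex (1.59 ± 0.5, adjusted p = 0.22), had the most positive differences of their list, and 1 probe set each of Utrn (-2.33 ± 0.4, adjusted p = 0.098) and of Dmd, the dystrophin gene (-2.04 ± 0.49, adjusted p = 0.152), the most negative. None of these passed, and 1 other Utrn probe set was the only call of the list, in double-null against pRb+/+ skin.

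Among regulators of myogenesis and satellite cells, Mef2c and Itga7, the laminin receptor chain of muscle fibres, headed the negative end in double-null against pRb-null skin, of which Itga7 did not pass (-2.4 ± 0.33, adjusted p = 0.0729, limma linear model). 1 probe set of Pax3, a factor of muscle precursors (1.96 ± 0.7, adjusted p = 0.256, against -0.32 ± 1.12 in its other probe set), and 1 probe set of Meg3, an imprinted noncoding RNA (1.72 ± 0.39, adjusted p = 0.14), lay at the positive end. In pRb-null against pRb+/+ skin Cdh15, the muscle cadherin (2.21 ± 0.71, adjusted p = 0.341), was at the positive and Mymk, which fuses myoblasts (-1.94 ± 0.65, adjusted p = 0.35), at the negative end.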
